A study of Mus musculus with 6 samples.

Results

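Genes of the p53 pathway, 10 in number, were followed in follicular B cells with and without myosin IIa: *Trp53*, which encodes p53, its inhibitors *Mdm2* and *Mdm4*, and, as target genes, *Cdkn1a*, *Ccng1*, *Sesn1*, *Sesn3*, *Trp53inp1*, *Zmat3* and *Phlda3*, whose products act in arrest, stress responses or feedback rather than as direct executors of death. The genes were chosen by name, with earlier results of these data known. All 10 were found among the 20458 gene names of the deposited table, in 13 of its 25017 entries. Each entry covers the transcripts of a gene that share 1 coding sequence, so a gene can have several. B220+AA4.1-CD23+CD21lo cells of C57BL/6 mice were sorted, and RNA was amplified and sequenced from 3 samples of the genotype CD23Cre+Myh9wt/fl and 3 of CD23Cre+Myh9fl/fl. Cre is driven by the CD23 promoter and is therefore active from the transitional stage of splenic B cells onward. Both genotypes carry Cre, and the wt/fl cells have lost 1 allele of *Myh9*, so the comparison group is haploinsufficient and no Cre-negative or wild-type cells were sequenced. The age of the sequenced mice is not given in the labels.

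p53 is a transcription factor that is made continuously and kept low by degradation. Mdm2 is a ubiquitin ligase that marks p53 for the proteasome, and Mdm4, its relative, binds p53 and blocks its activity. When DNA damage or other stress frees p53 from them, p53 switches on genes that stop the cell cycle, repair damage or kill the cell, and *Mdm2* itself, which closes a feedback loop. In lymphocytes this pathway guards against the breaks made during receptor gene rearrangement and division. Because p53 is controlled mainly at the protein level, *Trp53* mRNA says little about p53 activity, and the mRNA of its targets is the usual readout.

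The study named possible p53 targets among the genes that differed between the genotypes, and the comparison here asks where p53 itself, its inhibitors and its best-known arrest and stress targets stood in the same cells. The authors' table gives 1 FPKM value per genotype, the fragments of a transcript scaled to its length and to the fragments mapped in all, pooled over the 3 samples. No value per mouse was used, and the authors' own test results in the table were left out, so no error, test or p-value is given for any difference described here, and the read depth is unknown. FPKM was summed over the entries of a gene. Ratios are log2 of (fl/fl + 1) over (wt/fl + 1), which understates the difference of genes near 1 FPKM, and a gene was called different past 1.5-fold in either direction, a rule of size and not of significance. *Myh9*, the deleted gene, was at 50.6 FPKM in wt/fl against 21.1 FPKM in fl/fl, a log2 ratio of −1.22; fragments from exons outside the floxed exon 3 still count toward it.

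Letters that match a decamer of the p53 response element lie near the starts of several of these genes. The decamer of the p53 response element (the same on both strands) was searched, without mismatches, in RefSeq promoter windows of build GRCm38.p6. These windows run from 250 bases before to 50 bases after a transcription start. Of the 10 genes, 8 had a window, 11 windows in all, and 5 of these windows, each of a different gene, held a decamer, as did 8.36% of all 32851 windows. The stretch around each match, outside every annotated exon, is shown 5′ to 3′ on the gene's strand with the decamers in capitals, because these are the genes whose mRNA levels follow.

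Cdkn1a, chr17:29090876-29090967, plus strand: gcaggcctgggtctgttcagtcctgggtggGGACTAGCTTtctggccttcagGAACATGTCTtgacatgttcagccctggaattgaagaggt
Mdm2, chr10:117710905-117710974, minus strand: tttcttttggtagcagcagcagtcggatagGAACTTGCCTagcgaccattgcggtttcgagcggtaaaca
Ccng1, chr11:40755432-40755501, minus strand: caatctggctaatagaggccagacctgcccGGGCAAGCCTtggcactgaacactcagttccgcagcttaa
Sesn1, chr10:41887236-41887305, plus strand: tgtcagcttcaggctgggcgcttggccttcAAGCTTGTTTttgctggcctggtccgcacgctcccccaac
Trp53, chr11:69580256-69580323, plus strand: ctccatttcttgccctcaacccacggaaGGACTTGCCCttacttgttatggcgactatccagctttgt

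*Cdkn1a* alone among these genes had a pair of exact decamers, 12 bases apart, within the spacing searched (0 to 13 bases). Such a pair occurred in 0.0731% of all windows. The letters do not tell whether p53 uses this pair, or the second decamer with the near match that directly follows it. Since no mismatch was allowed, near matches stay in lower case. The bases directly after the second *Cdkn1a* decamer and directly before the *Ccng1* decamer come close to the pattern without meeting it. The first base of the exact pair lies 73 bases before the upstream start of *Cdkn1a* and 2863 bases before its second annotated start. The *Sesn1* match lies within the span of the gene, 173 bases before its internal start. The windows of *Mdm4*, *Phlda3* and *Sesn3* held no decamer, and *Trp53inp1* and *Zmat3* had no window. A match describes letters and not binding, which was not measured here.

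*Trp53* mRNA was abundant. Its entries summed to 102 FPKM in wt/fl against 110 FPKM in fl/fl, a log2 ratio of 0.10, and 94.2% of the 9879 genes that averaged 1 FPKM or more were expressed at a lower level. The ratio was far inside 1.5-fold, and 26.8% of the genes compared had a higher one. *Trp53* lies on chromosome 11 from 69580359 to 69591873 (GRCm38, plus strand) and overlaps no other annotated gene in GENCODE M21. A processed copy, *Trp53-ps*, lies on chromosome 17, and fragments shared with it could have been assigned to either.

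*Trp53* is 1 of 3 members with 2 entries. The higher entry was at 74.1 FPKM in wt/fl against 84.9 in fl/fl, a log2 ratio of 0.19. The lower entry went the other way, with 28.4 FPKM in wt/fl against 25.1 in fl/fl, a log2 ratio of −0.17. The higher entry thus held 72.3% of the summed FPKM in wt/fl against 77.2% in fl/fl, 4.88 points more. Among 1774 genes that averaged 1 FPKM or more and had more than 1 entry, the share of the main entry differed between the genotypes by a median of 4.93 points, so the difference in *Trp53* was an ordinary one for this table. The entries carry no transcript name. GENCODE M21 holds 4 coding sequences of *Trp53*, of 390, 387, 381 and 378 residues. They end in either of 2 ways, the regular carboxy terminus and the alternatively spliced one, and each ending occurs with a longer and a shorter form of the rest. The endings of the 390- and 381-residue forms are given here, with the last shared bases in lower case and the part of each ending in capitals, to show 1 way in which the entries could differ.

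Trp53, regular end: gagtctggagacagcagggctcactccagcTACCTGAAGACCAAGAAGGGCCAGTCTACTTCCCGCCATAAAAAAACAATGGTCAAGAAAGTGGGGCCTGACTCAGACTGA
Trp53, alternative end: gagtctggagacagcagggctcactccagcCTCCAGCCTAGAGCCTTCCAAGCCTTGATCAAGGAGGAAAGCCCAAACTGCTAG

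The coding sequences of these 2 forms are identical over their first 1092 bases. The regular ending adds 81 bases and the alternative one 54, stop codon included. Which entry holds which coding sequence is not given in the sources used here.

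The inhibitors stood at levels like that of *Trp53* itself. *Mdm2*, the ligase gene and also a p53 target (chromosome 10 from 117688875 to 117710758, minus strand), was at 69.9 FPKM in wt/fl against 69.6 in fl/fl. Its log2 ratio of −0.0063 was the closest to 0 of the 8 members compared. *Mdm4*, which encodes the inhibitor without strong ligase activity (chromosome 1 from 132959484 to 133030561, minus strand), was at 112 FPKM in wt/fl against 92.3 in fl/fl, a log2 ratio of −0.27, with 7.79% of the genes compared having a lower ratio. An annotated gene on the opposite strand, *Gm29257*, overlaps the span of *Mdm4*. Where their exons overlap, which was not checked, its reads cannot be told apart without strand information. In FPKM per FPKM of *Trp53*, *Mdm2* stood at 0.682 in wt/fl against 0.632 in fl/fl, and *Mdm4* at 1.09 and 0.840. The summed level of both inhibitors was 1.77 times that of *Trp53* in wt/fl and 1.47 times in fl/fl. *Mdm4* exceeded *Trp53* in wt/fl cells and was below it in fl/fl cells, with no spread against which to judge that order.

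**Figure D1:**
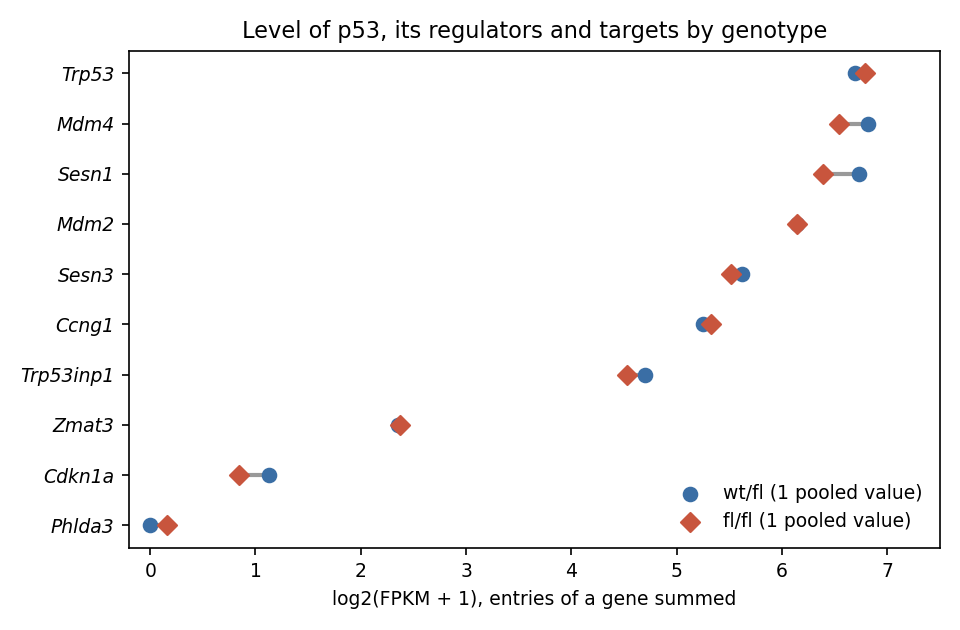
Level of each of the 10 genes in wt/fl (circles) and fl/fl (diamonds) follicular B cells, as log2(FPKM + 1) of the summed entries on the x axis, with 1 pooled value per genotype and therefore no error bars. The genotypes lie close together at every gene; the widest gaps are those of *Sesn1* (105 and 82.8 FPKM), *Cdkn1a* (1.18 and 0.794) and *Mdm4* (112 and 92.3).

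The arrest targets differed widely in level. *Cdkn1a* encodes p21, the cyclin-dependent kinase inhibitor through which p53 stops the cycle (chromosome 17 from 29090976 to 29100727, plus strand). It was at 1.18 FPKM in wt/fl against 0.794 FPKM in fl/fl, a log2 ratio of −0.28 with 1 added and a ratio of 0.671 without. Its mean of 0.989 FPKM was just under the filter of 1 FPKM, so *Cdkn1a* was not counted among the members compared, and without the added 1 its difference, 1.49-fold, was just under the 1.5-fold line. An antisense gene, *AC167363.2*, overlaps the span of *Cdkn1a* in the annotation. Where their exons overlap, which was not checked, its reads and those of *Cdkn1a* cannot be told apart at this level without strand information. *Ccng1* encodes cyclin G1, a p53-induced partner of a phosphatase that acts on Mdm2 (chromosome 11 from 40748552 to 40755311, minus strand). It was at 37.0 FPKM in wt/fl against 39.1 in fl/fl, a log2 ratio of 0.08. *Cdkn1a* was thus listed lower in fl/fl, at a ratio of 0.671 without the added 1, and *Ccng1* slightly higher. *Cdkn1a* has the pair of exact decamers, with a near match directly after the second, and *Ccng1* has 1 exact decamer with a near match directly before it. Whether these letters bear on either difference was not tested.

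The sestrins were among the more abundant targets. They inhibit the growth kinase complex mTORC1 by binding its regulator GATOR2, and both genes are known to be induced by FOXO factors, *Sesn1* by p53 as well; *Sesn3* is counted here with the targets because the list of genes holds it. *Sesn1* (chromosome 10 from 41809935 to 41908424, plus strand) was at 105 FPKM in wt/fl against 82.8 FPKM in fl/fl, a log2 ratio of −0.35. This was the lowest ratio of the members compared, and 4.79% of the genes compared had a lower one. Both *Sesn1* entries were lower in fl/fl, the higher at 98.7 and 78.2 FPKM (log2 ratio −0.33) and the lower at 6.76 and 4.59 FPKM (log2 ratio −0.47), so the share of the higher entry was close in the genotypes, 93.6% and 94.4%. *Sesn3* (chromosome 9 from 14275067 to 14333101, plus strand) was at 48.3 FPKM in wt/fl against 44.9 in fl/fl, a log2 ratio of −0.10. *Sesn1* was 2.18 times as abundant as *Sesn3* in wt/fl and 1.84 times in fl/fl. *9930024M15Rik*, annotated on the same strand, overlaps the span of *Sesn1* and could share reads with it where exons overlap, which was not checked.

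The coding sequences of *Sesn1* in GENCODE M21 begin in 2 ways, from different starts, and their first 60 bases are shown because they are what separates the possible entries; neither stretch is shared.

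Sesn1, internal start: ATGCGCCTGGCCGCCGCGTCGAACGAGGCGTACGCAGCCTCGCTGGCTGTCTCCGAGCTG
Sesn1, upstream start: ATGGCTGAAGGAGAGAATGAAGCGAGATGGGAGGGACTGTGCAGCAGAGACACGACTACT

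The forms share their last 1381 coding bases and encode 492 and 551 residues. The internal start is the one preceded by the decamer shown above, and which of the *Sesn1* entries begins there is not given in the sources used here.

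**Figure D2:**
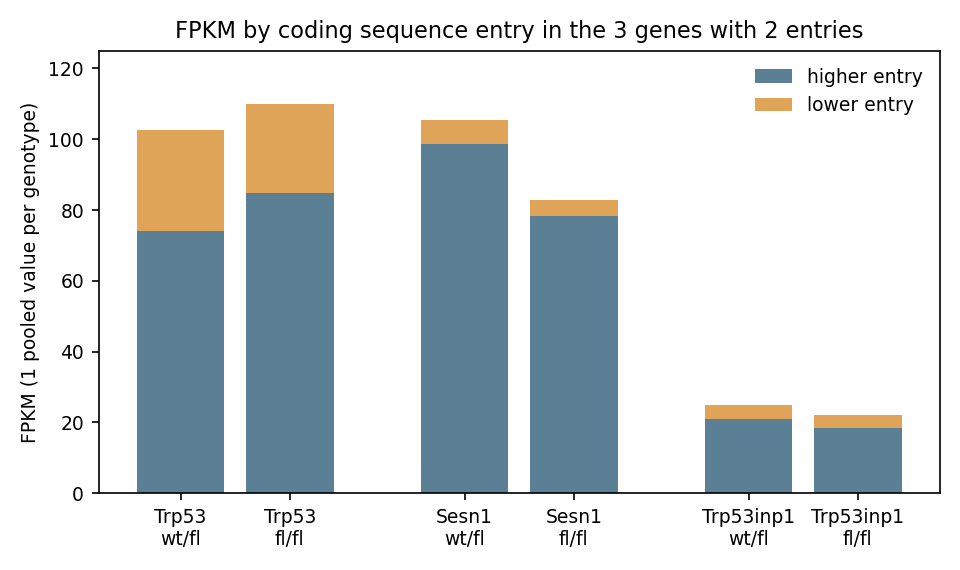
FPKM of the higher (blue) and lower (orange) coding sequence entry of *Trp53*, *Sesn1* and *Trp53inp1*, stacked for wt/fl and fl/fl follicular B cells (1 pooled value per genotype, y axis in FPKM). The *Trp53* entries differ in opposite directions, 74.1 and 84.9 against 28.4 and 25.1 FPKM, whereas both entries of *Sesn1* and of *Trp53inp1* are lower in fl/fl.

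The remaining targets covered low to moderate levels. *Trp53inp1*, which encodes a nuclear protein that promotes p53 phosphorylation and autophagy (chromosome 4 from 11156431 to 11174379, plus strand), was at 24.9 FPKM in wt/fl against 22.1 in fl/fl, a log2 ratio of −0.17. Its entries were both lower in fl/fl, at 20.8 and 18.5 FPKM and at 4.12 and 3.58 FPKM. *Zmat3*, which encodes a zinc finger protein that binds RNA (chromosome 3 from 32334792 to 32366014, minus strand), was at 4.10 FPKM in wt/fl against 4.17 in fl/fl, a log2 ratio of 0.02. *Phlda3*, which encodes a pleckstrin homology domain protein that restrains Akt (chromosome 1 from 135766119 to 135769136, plus strand), was listed at 0 in wt/fl and at 0.116 FPKM in fl/fl. No ratio is read from *Phlda3*, which was the only member with an entry that the authors' software had left untested.

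Ordered by mean FPKM over the genotypes, the genes ran from *Trp53* (106), *Mdm4* (102) and *Sesn1* (94.1) through *Mdm2* (69.7), *Sesn3* (46.6), *Ccng1* (38.1), *Trp53inp1* (23.5), *Zmat3* (4.13) and *Cdkn1a* (0.989) to *Phlda3* (0.0579). Without a spread over samples it cannot be said which neighbors in this order differ. The order was that of wt/fl cells only from *Mdm2* downward, since *Mdm4* and *Sesn1* stood above *Trp53* in wt/fl and below it in fl/fl.

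As a group, the members that passed the filter on low values showed no call. Of these 8 genes, 0 were higher in fl/fl past 1.5-fold, where 0.790% of all genes compared were, and 0 were lower, where 1.53% were. Past a log2 ratio of 0.32 in size, a lower line, 0 of 8 were higher (4.60% of all genes) and 1 of 8, *Sesn1*, was lower (5.48% of all genes). At any size, 3 were higher (50.5% of all genes) and 5 lower (49.5%). The median log2 ratio of the 8 was −0.06 (range −0.35 to 0.10), beside 0.0026 over all 9879 genes, whose middle 50% lay between −0.11 and 0.11. *Trp53*, *Mdm2*, *Ccng1*, *Sesn3* and *Zmat3* lay within that middle range, and *Mdm4*, *Sesn1* and *Trp53inp1* lay below it.

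**Figure D3:**
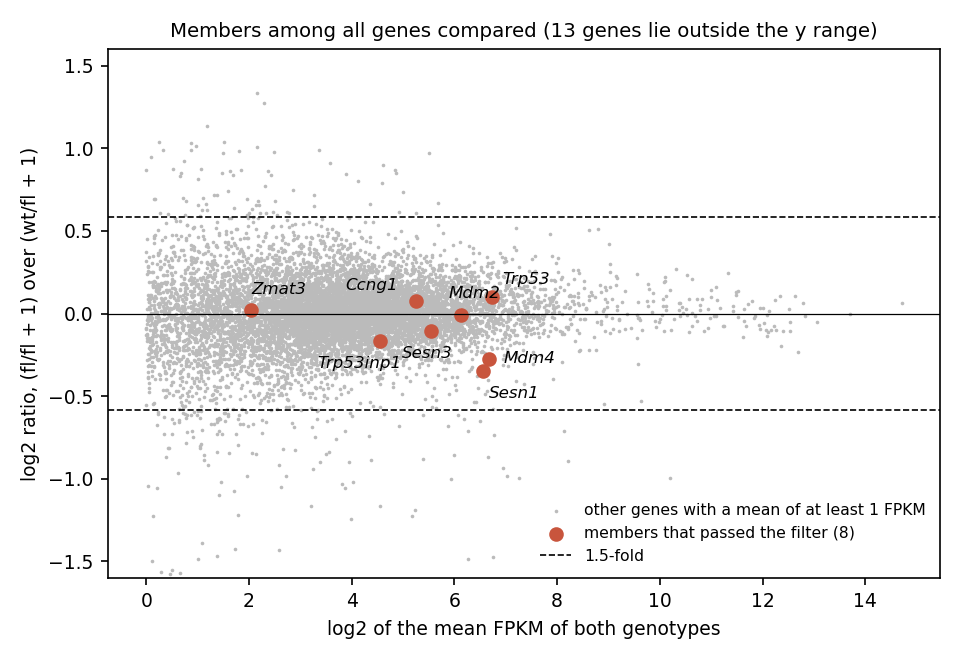
Log2 ratio of fl/fl over wt/fl (1 added to each FPKM, y axis) against the log2 mean FPKM (x axis) for the 9879 genes compared, each a grey point, with the 8 members that passed the filter in red and named; dashed lines mark 1.5-fold, and 13 genes beyond ±1.6 are not drawn. All 8 members lie between the lines, from −0.35 (*Sesn1*) to 0.10 (*Trp53*).

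As a set, the regulators upstream of p53 were close to even between the genotypes. Of 25 listed kinases, modifiers and cofactors, 22 passed the filter, 10 higher and 12 lower, with a median log2 ratio of −0.0067 and 0 past 1.5-fold in either direction. Past the lower line, 0 of 22 were higher (4.60% of all genes) and 1 was lower (5.48%). This was the kinase gene *Chek2*, at 7.24 FPKM in wt/fl against 4.84 in fl/fl, a log2 ratio of −0.50. The most abundant were *Rpl11* (4052 FPKM in wt/fl against 4151 in fl/fl) and *Rpl5* (1075 and 1157), ribosomal proteins that can bind Mdm2, and *Npm1* (429 and 485), the nucleolar protein nucleophosmin. *Cdkn2a*, whose Arf product inhibits Mdm2, was listed at 0 in both genotypes. The p53 paralogs were near absent, *Trp63* at 0.0734 and 0.0507 FPKM and *Trp73* listed at 0 in both.

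Other genes downstream of p53 went both ways. Of 25 further arrest, repair and metabolism targets in the table, 20 passed the filter, with a median log2 ratio of −0.11. Of these 20, 7 were higher (50.5% of all genes) and 13 lower (49.5%). Past the lower line, 0 were higher (4.60% of all genes) and 3 lower (5.48%). *Rps27l* (115 FPKM in wt/fl against 108 in fl/fl), which encodes a ribosomal protein-like regulator of Mdm2, the antiproliferative gene *Btg2* (73.7 and 60.3) and the epoxide hydrolase gene *Ephx1* (66.3 and 66.2) were the most abundant. *Plk2*, a polo-like kinase gene, was the 1 past 1.5-fold, at 2.74 and 1.41 FPKM, a log2 ratio of −0.63. Of 11 death genes in the table, 9 passed, 5 higher and 4 lower, with a median of 0.02. Past the lower line, 1 of the 9 was higher and 1 lower. *Fas*, the death receptor gene, was past 1.5-fold and higher in fl/fl, at 4.43 and 7.19 FPKM (log2 ratio 0.59), whereas *Bax* (69.8 and 65.2), *Bid* (25.5 and 27.9) and *Siva1* (16.8 and 17.1) were the most abundant. *Plk2* and *Fas*, both classed as p53-induced, thus differed in opposite directions.

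Cell cycle genes that p21 represses through the DREAM complex were low in these cells. Of 12, 7 passed the filter, 1 higher (50.5% of all genes) and 6 lower (49.5%), with a median of −0.24 and 0 past 1.5-fold. Past the lower line, 1 of the 7 was higher (4.60% of all genes) and 2 were lower (5.48%). *Ccna2* (3.26 FPKM in wt/fl against 3.16 in fl/fl), *Top2a* (3.26 and 2.52) and *Mki67* (2.69 and 1.5) were the most abundant. *Cdc20*, the 1 that was higher in fl/fl, was at 1.43 and 2.25 FPKM; it lies outside the rule for named genes and was chosen after its value was seen.

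Downstream and beside the sestrins, the 17 genes of the GATOR and mTORC1 list all passed the filter, 8 higher and 9 lower, with a median of −0.01. Past the lower line, 0 of the 17 were higher (4.60% of all genes) and 2 lower (5.48%). *Sec13* (42.3 FPKM in wt/fl against 43.9 in fl/fl), *Rraga* (37.0 and 40.4) and *Seh1l* (25.5 and 30.6), subunits or activators of the nutrient-sensing machinery, were the most abundant. *Ddit4*, a stress-induced inhibitor of mTORC1 that p53, glucocorticoids and hypoxia can raise, was the 1 past 1.5-fold, at 22.6 and 8.95 FPKM (log2 ratio −1.25). Of 11 FOXO-responsive genes, 9 were lower (49.5% of all genes) and 2 higher (50.5%), with a median of −0.23. Past the lower line, 4 of the 11 were lower (5.48% of all genes) and 0 higher (4.60%). *Txnip* (274 and 208) and *Tsc22d3* (204 and 102) were among the most abundant, and *Tsc22d3*, also a glucocorticoid target, was the 1 past 1.5-fold, at a log2 ratio of −0.996.

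**Figure D4:**
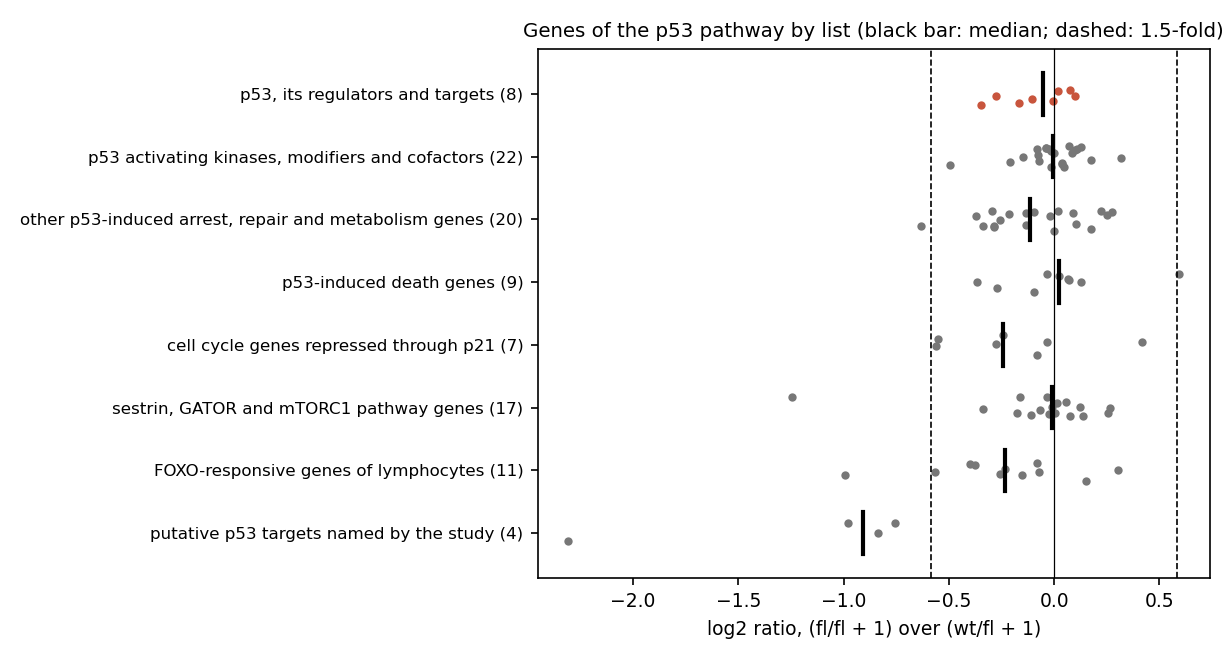
Log2 ratio of fl/fl over wt/fl (1 added to each FPKM, x axis) for each gene that averaged 1 FPKM or more, by list, with the number of genes in parentheses; points are genes, black bars medians and dashed lines 1.5-fold. The members (top, red) have a median of −0.06, the p53 regulators −0.0067, the other p53-induced arrest genes −0.11 and the p53-induced death genes 0.02. The cell cycle list is at −0.24, the FOXO-responsive list at −0.23 and the mTORC1 list at −0.01. The 4 genes named by the study, chosen there among genes downregulated in these same samples, have a median of −0.91.

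The 4 genes that the study named as putative p53 targets, *Dusp1*, *Ets2*, *S100a9* and *Zfp36l2*, stood apart from the members, with a median log2 ratio of −0.91 and all 4 lower in fl/fl past 1.5-fold. The study chose them among the genes downregulated in these same samples. Neither their direction, nor their size, nor their distance from the members is therefore independent evidence. *S100a9*, at 175 FPKM in wt/fl against 34.5 in fl/fl, is also a neutrophil marker.

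The sorted cells carried B cell markers at high levels, with 8 of 8 above 1 FPKM and a summed level of 4910 FPKM in wt/fl against 5168 in fl/fl (*Cd79b* highest, 1638 and 1739). Neutrophil, erythroid and plasma cell markers were lower in fl/fl. All 6 neutrophil markers above 1 FPKM were lower in fl/fl, with a summed level over the 8 listed of 364 and 64.6 FPKM (*S100a9* highest). The other listed markers, *Elane* (0.119 FPKM in wt/fl) and *Mpo* (0.0916), were near 0 in wt/fl and listed at 0 in fl/fl. Erythroid markers summed to 55.5 and 7.72 FPKM over 5 genes, most of it *Beta-s* (52.0 and 7.08). Plasma cell markers, 3 of 3 above 1 FPKM lower and 2 of them past 1.5-fold, had a median log2 ratio of −0.63. They summed to 57.6 and 48.5 FPKM, most of it *Xbp1* (48.8 and 45.9), whereas *Igj*, the J chain gene, was at 5.40 and 0.617 and *Sdc1*, the CD138 gene, at 2.30 and 1.13. Macrophage markers summed to 14.8 and 13.3 FPKM over 7 genes (*Cd68* highest, 7.41 and 6.10), and T cell markers to 22.8 and 21.4 FPKM over 6 (*Lck* highest, 14.5 and 14.5). Their part in the differences of *Sesn1*, *Mdm4*, *Cdkn1a* and the other members was not tested, and in bulk samples fewer cells of a type cannot be told apart from less RNA per cell.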

How the data were processed

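RNA of sorted follicular B cells from 3 wt/fl and 3 fl/fl samples was amplified (Ovation) and made into libraries (TruSeq Nano). The submitters' processing notes name Bowtie, TopHat and Cufflinks, without versions, and mm10. The authors' deposited table, in the layout of Cuffdiff, holds FPKM pooled to 1 value per genotype. Its remaining columns hold the authors' own fold changes, test statistics, p-values and q-values and were not used. Table positions differ from GRCm38 for all 10 genes and were not used; coordinates are from GENCODE M21 (GRCm38). Symbols not in the table were matched through RefSeq synonyms. FPKM was summed per gene name (pandas 2.3.3, numpy 2.4.6), 1 FPKM was added before log2, and genes averaging 1 FPKM or more were compared. Called means past 1.5-fold. Functions were tested on simulated data. The members and lists were chosen with earlier results of these data known. Named genes were *Myh9*, all members, the 3 most abundant genes of each list, any list gene past 1.5-fold, and the highest gene of each marker list. A gene of this rule is not reported here. *Cdkn2a*, *Chek2*, *Trp63*, *Trp73*, *Elane*, *Mpo*, *Igj* and *Sdc1* fall outside this rule and were named after their values were seen. No genes were named for likeness of pattern, since 2 values give only a ratio. Depth is unknown.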

Additional observations from a re-analysis of the deposited data

How the results depend on the processing

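The main limit is that each genotype is 1 pooled value. No paired analysis was possible because the deposited columns carry no replicate numbers, and for the same reason no replicate was left out. The count of members lower in fl/fl was 1 (*Sesn1*) at the lower line, a log2 ratio of 0.32, in place of 0 at 1.5-fold; at 2-fold, under pseudocounts of 0.1 or 0, under upper quartile scaling or median centring, with tested or main entries alone, and with a minimum of 5 FPKM or none, both counts were 0. The median log2 ratio stayed between −0.10 (at least 5 FPKM, 7 members) and −0.06. Adding the same amount to both genotypes cannot reverse the sign of a ratio. Tested entries alone left every ratio they covered unchanged, and main entries alone did so for genes with 1 entry. Scaling and centring shifted every ratio only slightly. All 58 member ratios recomputed under an alternative kept their sign, and 55 moved by less than 0.1. Most of this followed from how the alternatives were built, so these counts are little evidence of stability. The exceptions were low genes, *Cdkn1a* (−0.52 with 0.1 added and −0.58 with nothing added) and *Phlda3* (1.11 with 0.1 added). With its main entry alone, the ratio of *Trp53* was 0.19 in place of 0.10.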
